A study of Mus musculus with 6 samples.

Results

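The 9 genes described here encode parts of the transforming growth factor beta (TGF-beta) pathway: the ligands Tgfb1 and Tgfb2, the latency protein Ltbp1, the receptors Tgfbr1 and Tgfbr2, the transducer Smad3, the inhibitors Smad7 and Pmepa1, and the target gene Ctgf. They were taken by symbol from the 31053 genes of the matrices, and all 9 were found. In the GENCODE annotation of build mm10 the 3 that the results turn on are protein-coding genes: Tgfb2 (ENSMUSG00000039239) at chr1:186622792-186705989 on the minus strand, Ctgf (ENSMUSG00000019997) at chr10:24595442-24598683 on the plus strand and Pmepa1 (ENSMUSG00000038400) at chr2:173224458-173276533 on the minus strand. The 9 genes were followed in single nuclei of kidney cortex from FVB/N mice, counted as unique molecular identifiers (UMIs, each standing for 1 captured RNA molecule) of nuclear RNA on the 10x Chromium system. The knockout group was 3 libraries of Podocin-Cre Klf4 fl/fl mice. The control group was 3 libraries of Klf4 fl/fl mice, which carry the same floxed alleles and no Cre. Podocin is a protein of podocytes, the filtering cells of the glomerulus, so its promoter directs the recombinase to that cell type, and Klf4, which encodes a zinc-finger transcription factor, was left in place in the other cells. The labels state no age, litter or preparation day, and nothing there says that each library came from a separate animal, so the p-values measure the spread between these libraries.

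TGF-beta is secreted bound to latent TGF-beta binding proteins such as LTBP1 and is released from them in the matrix. The freed ligand joins receptors II (Tgfbr2) and I (Tgfbr1), receptor I phosphorylates SMAD3, and SMAD3 enters the nucleus and switches on matrix genes, Ctgf (connective tissue growth factor) and its own brakes. SMAD7 blocks receptor I, and PMEPA1, a membrane protein induced by TGF-beta, holds back the SMADs. In the kidney the pathway is known for glomerular scarring, for the loss of podocytes and for the deposition of matrix by parietal epithelial cells, which line Bowman's capsule, and by stromal cells. Each cell class below is a group of nuclei that is like the named cell type by its marker genes.

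The knockout libraries held 22080, 5089 and 6079 barcodes and the control libraries 21957, 3919 and 5318. The libraries numbered 1 stood apart in both groups: they had 52478581 UMIs in knockout 1 and 62016616 in control 1, against 8270961 to 12604832 in the other 4, and a median mitochondrial share of 1.02% and 2.67% of UMIs, against 0.087 to 0.163%. Any 2 libraries shared 5 to 132 barcodes, up to 1.39% of the smaller. Klf4 had 3, 0 and 1 UMIs in knockout podocytes and 1, 0 and 0 in control podocytes, so its loss was not detectable at this depth: 3 UMIs over the group would be a level of 5.36 CPM (UMIs in proportion to all UMIs of the class, on the standard CPM scale) in knockout and 5.66 CPM in control podocytes. The podocyte class held 649 nuclei (256, 61 and 79 in the knockout libraries, 150, 58 and 45 in the controls), the parietal class 158 (50, 27 and 27 in the knockouts, 27, 13 and 14 in the controls) and the stromal class 254 (90, 24 and 38 in the knockouts, 49, 25 and 28 in the controls). Podocyte markers summed to 42051 to 59372 CPM in knockout and 59581 to 66256 CPM in control podocytes. The parietal class rests on 1 cluster led by Ncam1, Fam19a1 and Tenm2, with Akap12 and Tnc further down its leading genes. It held markers of both glomerular epithelia: parietal markers summed to 1693 to 2922 CPM in the knockouts and 955 to 3021 CPM in the controls, and podocyte markers to 2242 to 3614 CPM in the knockouts and 1228 to 4032 CPM in the controls. Parietal markers were not particular to it: in an unnamed cluster led by Fhl2 and Ak5 they summed to 1413 to 2161 CPM in the knockouts and 1196 to 1896 CPM in the controls.

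The stretches before the start sites of both ligand genes are shown because the deleted gene encodes a KLF factor, and because Tgfb2 is among the members whose libraries did not overlap between the groups in podocytes. RefSeq promoters of build GRCm38.p6 were used for 6 of the 9 genes, 8 promoters in all. Ctgf, Pmepa1 and Smad7 are not among them, so the motif counts below leave these members out. Their absence from the set used does not show that they lack a RefSeq promoter. Their promoters were not searched for the motifs, so the counts do not describe the pathway as a whole. The 250 bases before the start are printed 5′ to 3′ on the gene's own strand, chr1:186705990-186706239 (minus strand) for Tgfb2 and chr7:25686752-25687001 (plus strand) for Tgfb1.
Tgfb2: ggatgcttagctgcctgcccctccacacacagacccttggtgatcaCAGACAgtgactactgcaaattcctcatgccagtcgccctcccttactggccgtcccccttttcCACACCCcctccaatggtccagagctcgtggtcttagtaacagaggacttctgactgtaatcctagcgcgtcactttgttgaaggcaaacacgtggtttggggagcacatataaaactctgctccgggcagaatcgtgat
Tgfb1: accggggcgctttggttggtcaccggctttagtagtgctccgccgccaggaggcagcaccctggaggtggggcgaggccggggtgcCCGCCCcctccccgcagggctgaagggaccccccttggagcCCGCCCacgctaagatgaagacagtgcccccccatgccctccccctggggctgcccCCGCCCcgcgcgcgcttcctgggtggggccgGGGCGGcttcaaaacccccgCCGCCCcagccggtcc
Capitals mark matches on either strand to CAGACA (the SMAD motif), GGGTGTG (the CACCC motif of KLF factors), GGAATG (the TEAD motif) or GGGCGG (the GC box). In Tgfb2 they are CAGACA at -204 and CACACCC, the KLF motif on the reverse strand, at -140 from the start. In Tgfb1 they are 5 GC boxes. No match in either sequence overlaps another. Over the 8 promoters CAGACA was in 3, GGGTGTG in 2, GGAATG in 0 and GGGCGG in 3. Over all 32851 promoters of this length the shares were 17.1%, 6.93%, 12.6% and 32.7% in the same order. A match is a string of letters and not a bound site.

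Levels by cell class are described first, as CPM of that class in that library, with no correction for gene length, so levels of different genes are not compared. In knockout nuclei Tgfb2 was highest in the parietal class (317 ± 362 CPM, SD, n = 3) and next in podocytes (226 ± 178) and stromal nuclei (64.4 ± 25.0). In control nuclei it was highest in an unnamed cluster led by Fhl2 and Ak5 (102 ± 46.4 CPM), then in stromal nuclei (74.7 ± 46.9), endothelial cells (44.1 ± 23.7) and the parietal class (24.2 ± 22.9). The proximal tubule, which gave most nuclei, had 2.05 ± 0.822 CPM in the knockouts and 3.53 ± 0.51 CPM in the controls. Tgfb1 was highest in the Fhl2-Ak5 cluster of the knockouts (84.9 ± 44.6 CPM) and in the endothelial cells of the controls (28.5 ± 7.91 CPM).

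Ltbp1 was a gene of stromal and endothelial nuclei in both groups. It stood at 473 ± 254 CPM in stromal and 262 ± 99.5 CPM in endothelial nuclei of the knockouts, and at 248 ± 28.1 and 210.3 ± 103 CPM in the controls. In the controls these 2 classes lay above the other 12 with no overlap between libraries. In the knockouts the parietal class (280.2 ± 282 CPM) came between them, and stromal and endothelial nuclei lay above the Fhl2-Ak5 cluster (63.1 ± 25.4 CPM) with no overlap.

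Ctgf led in podocytes among the knockout classes (375 ± 221 CPM), followed by the parietal class (259 ± 178), the Fhl2-Ak5 cluster (134 ± 63.8) and stromal nuclei (101 ± 38.7). Those 4 classes lay above endothelial cells (16.7 ± 9.92 CPM) with no overlap. In the controls it led in the Fhl2-Ak5 cluster (332 ± 116 CPM), above podocytes (55.3 ± 16.4 CPM) with no overlap. Pmepa1 was first in the parietal class of the knockouts (353 ± 113 CPM) and last there in the controls (9.05 ± 15.7 CPM), where podocytes led (190.1 ± 35.1 CPM).

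The receptors and SMADs were spread over the tubule. Tgfbr1 was highest in the connecting tubule of the knockouts (379 ± 76.9 CPM) and lowest in podocytes of either group, at 65.6 ± 15.6 CPM in the knockouts and 55.3 ± 6.75 CPM in the controls. Smad7 was also lowest in podocytes, at 45.1 ± 14.0 CPM in the knockouts and 45.6 ± 21.1 CPM in the controls. Tgfbr2 led in immune nuclei of the knockouts (208 ± 70.0 CPM) and in endothelial cells of the controls (150.3 ± 24.4 CPM). Smad3 led in the Fhl2-Ak5 cluster, at 401 ± 36.7 CPM in the knockouts and 259.8 ± 72.2 CPM in the controls. Most neighbours in these orders do not differ beyond their spread: the libraries overlapped in 129 of 135 neighbouring pairs in the knockouts and 113 of 117 in the controls.

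**Figure D1:**
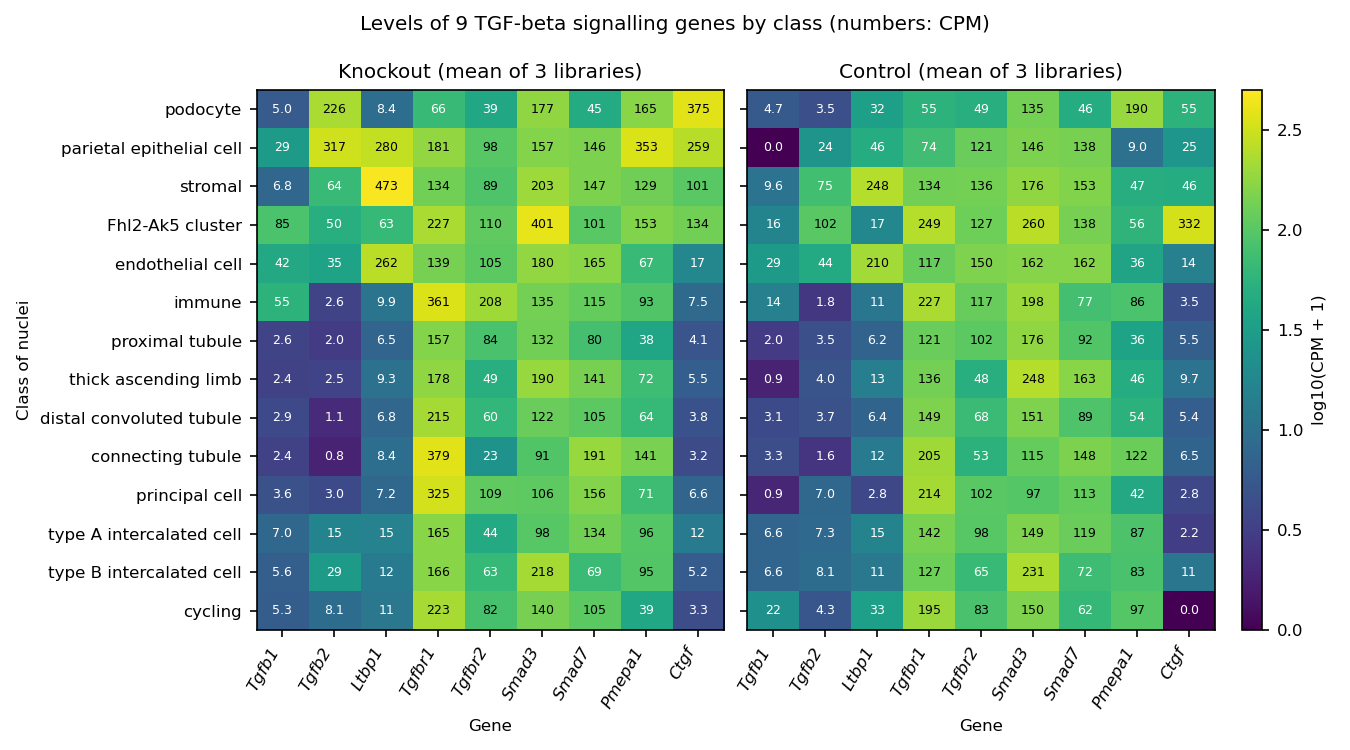
Mean CPM over 3 libraries (numbers in the cells, colour as log10(CPM + 1)) of each member (columns) in each class of nuclei (rows), knockout libraries in the left panel and control libraries in the right. Tgfb2 and Ctgf are at 226 and 375 CPM in knockout podocytes against 3.53 and 55.3 CPM in control podocytes, and Ltbp1 is highest in stromal nuclei of both groups.

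The comparison of knockout with control asks what the removal of Klf4 from podocytes goes with in this pathway, in podocytes themselves and in their neighbours. No member passed an adjusted p of 0.05 in podocytes, parietal or stromal nuclei when all 6 libraries were fitted with edgeR. The widest separations in UMIs were those of the ligand Tgfb2 in podocytes, 67 UMIs in the knockouts against 4 in the controls, of Ctgf in podocytes, 129 against 35, and of Pmepa1 in the parietal class, 60 against 2. Tgfb1, both receptors, Smad3 and Smad7 had overlapping libraries in podocytes and in stromal nuclei. Fits that left out knockout 1, or both libraries numbered 1, called Tgfb2 and Ctgf in podocytes and Pmepa1 in the parietal class. In these fits the low-count filter kept the named genes through the knockout libraries alone, so their side was fixed in advance. Such calls are descriptions and not support for a rise. Leaving out any other single library called no member in podocytes or the parietal class. The fits without knockout 1 and without both libraries numbered 1 also called many more genes in all: 14.2% and 13.0% in podocytes and 16.2% and 11.0% in the parietal class, in that order.

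Among the ligands, Tgfb2 had 20, 25 and 22 UMIs in podocytes of knockouts 1, 2 and 3, against 4, 0 and 0 in controls 1, 2 and 3. As levels these were 50.2, 406 and 221 CPM in the knockouts and 10.6, 0 and 0 CPM in the controls. Every knockout library was above every control library, and knockout 1 was the lowest of the knockouts. The pooled ratio of CPM was 15.9, with an exact 95% interval of 5.91 to 59.9 that covers counting error alone and not the spread between libraries. The exact two-sided permutation test over libraries gave p = 0.1, the smallest that 3 against 3 allows. The low-count filter left Tgfb2 out of the fit. With no filter the adjusted p was 2.6e-09, where 0.519% of all genes were called, and DESeq2 gave a log2 change of 5.05 and an adjusted p of 0.0013, where 0.851% were called.

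The 67 UMIs lay in 33 knockout podocyte nuclei, with at most 10 in 1 nucleus, and the 4 control UMIs in 3 nuclei. Podocytes made up a cluster of 541 nuclei (249, 61 and 77 in the knockouts, 74, 51 and 29 in the controls) and one of 108 (7, 0 and 2 in the knockouts, 76, 7 and 16 in the controls). In the larger cluster alone Tgfb2 had 20, 25 and 22 UMIs in the knockouts and 0, 0 and 0 in the controls, at least 9.8-fold higher when the controls are set to 3 UMIs in all. All 4 control UMIs of Tgfb2 came from the smaller cluster. Podocyte nuclei differed in other ways between the groups: proximal tubule markers summed to 2081 to 7981 CPM in knockout and 5729 to 14797 CPM in control podocytes, with all 11 markers lower in the knockouts, and injured tubule markers to 359 to 582 CPM in the knockouts and 136 to 302 CPM in the controls. Their part in the member values was not tested. Mesangial markers, at 0 to 50.2 CPM in the knockouts and 0 to 104 CPM in the controls, and fibroblast markers, at 0 to 27.6 CPM in the knockouts and 23.2 to 37.1 CPM in the controls, were also measured in podocytes, and their part was not tested.

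Parietal nuclei had 10, 4 and 39 UMIs of Tgfb2 in the knockouts and 2, 1 and 0 in the controls, or 90.0, 126 and 734 CPM against 27.1, 45.5 and 0 CPM. The groups did not overlap, and knockout 3 was far above the rest, with 18 of its UMIs in 1 nucleus. The pooled ratio was 10.5 (exact 95% interval 3.39 to 52.4, counting error alone). Endothelial markers in this class also summed highest in knockout 3, at 922 CPM. They were at 135 and 314 CPM in knockouts 1 and 2 and at 48.7 to 136 CPM in the controls. Of the 11 markers 3 were higher in the knockouts and 6 in the controls. Their part in the Tgfb2 and Ltbp1 values of the parietal class was not tested. In stromal nuclei Tgfb2 had 7, 4 and 4 UMIs in the knockouts and 21, 1 and 7 in the controls, at 64.4 ± 25.0 and 74.7 ± 46.9 CPM, and the groups overlapped.

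Tgfb1 was scarce in glomerular nuclei. It had 2, 0 and 1 UMIs in knockout and 1, 0 and 1 in control podocytes, which is at or under the floor of 3 UMIs in both groups. In stromal nuclei it had 4, 0 and 0 UMIs in the knockouts and 3, 0 and 1 in the controls. Parietal nuclei had 4, 1 and 1 UMIs of Tgfb1 in the knockouts and 0, 0 and 0 in the controls, and the exact 95% interval of the ratio, with a lower end of 0.698, includes no difference. In the Fhl2-Ak5 cluster, where Tgfb1 was highest, it had 29, 2 and 11 UMIs in the knockouts and 2, 0 and 2 in the controls, or 103, 34.1 and 118 CPM against 29.9, 0 and 17.1 CPM. The groups did not overlap there, and the pooled ratio was 4.77 (exact 95% interval 1.73 to 18.3, counting error alone).

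Ltbp1, the latency protein, had 55, 19 and 39 UMIs in stromal nuclei of the knockouts and 45, 12 and 18 in those of the controls, or 279, 378 and 761 CPM against 246, 278 and 221 CPM. Knockout 3 was the highest, while knockout 1 lay just above control 2. The fitted log2 change was 0.83 ± 0.37 (SE), with an edgeR adjusted p of 0.378, and without knockout 3 it was 0.35 with an adjusted p of 0.835. Fibroblast markers moved the same way in this class, at 371 to 1560 CPM in the knockouts and 86.1 to 257 CPM in the controls (7 of 7 markers higher, highest in knockout 3), and their part in the Ltbp1 values was not tested. In the mural cluster alone, without the fibroblast cluster, Ltbp1 was at 606 ± 303 CPM in the knockouts and 288 ± 34.6 CPM in the controls.

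Ltbp1 in the parietal class had 9, 5 and 32 UMIs in the knockouts and 3, 0 and 2 in the controls, or 81.0, 157 and 602 CPM against 40.7, 0 and 97.5 CPM. The groups overlapped, since knockout 1 was below control 3. In podocytes it had 6, 0 and 1 UMIs in the knockouts and 3, 2 and 5 in the controls, at 8.36 ± 7.66 and 32.0 ± 25.1 CPM.

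The receptors overlapped between the groups in podocytes, parietal and stromal nuclei. Tgfbr1 had 65.2, 81.3 and 50.1 CPM in knockout podocytes and 47.7, 60.4 and 58.0 CPM in control podocytes, and in stromal nuclei 66.0, 159 and 176 CPM in the knockouts against 126, 116 and 159.9 CPM in the controls. The stromal fit gave a log2 change of -0.27 ± 0.46 (edgeR adjusted p = 0.862). For Tgfbr1 the parietal class had 20, 5 and 11 UMIs in the knockouts and 2, 0 and 4 in the controls, or 180.1, 157 and 207 CPM against 27.1, 0 and 195 CPM. Control 3 overlapped the knockout libraries while the other controls were lower.

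Over all classes, Tgfbr1 was on the higher side in the knockouts in 11 of the 12 where it was tested, stromal nuclei being the exception, and passed the threshold in 0 of them. The classes share their libraries and are not independent. Its largest fitted change was in the connecting tubule, at 379 ± 76.9 CPM in the knockouts and 205 ± 43.9 CPM in the controls (log2 0.78 ± 0.23, edgeR adjusted p = 0.696), with every knockout library above every control library.

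Receptor II gave the opposite picture, with no call either. Tgfbr2 had 45.1, 32.5 and 40.1 CPM in knockout podocytes and 66.2, 45.3 and 34.8 CPM in control podocytes. Parietal nuclei had 117, 62.8 and 113 CPM in the knockouts and 81.4, 136 and 146 CPM in the controls, and in stromal nuclei 91.4, 59.7 and 117 CPM in the knockouts and 87.4, 185 and 135 CPM in the controls. It was lower in the knockouts in 8 of the 10 classes where it was tested, with 0 calls. The largest of these was in type A intercalated cells, acid-secreting cells of the collecting duct (log2 -1.10 ± 0.36, edgeR adjusted p = 0.284). In endothelial cells it was at 134, 52.8 and 126 CPM in the knockouts and 138, 135 and 178 CPM in the controls, with no overlap.

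Smad3, the transducer, had 75, 13 and 13 UMIs in knockout and 61, 7 and 12 in control podocytes, or 188, 211 and 130.4 CPM against 161.5, 106 and 139 CPM. The fitted log2 change was 0.35 ± 0.33 (edgeR adjusted p = 0.737), and the groups overlapped. Smad3 in the parietal class was at 157 ± 31.1 CPM in the knockouts and 146 ± 90.5 CPM in the controls, and in stromal nuclei at 203 ± 80.4 and 176 ± 37.3 CPM (log2 0.06 ± 0.35, adjusted p = 0.976). In the Fhl2-Ak5 cluster, where it was highest, it had 426, 359 and 417 CPM in the knockouts and 209, 228 and 342 CPM in the controls (log2 0.54 ± 0.31, adjusted p = 0.766), with no overlap.

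Smad7, the inhibitor of receptor I, had 17, 2 and 6 UMIs in knockout and 14, 2 and 6 in control podocytes. In the parietal class it was at 146 ± 45.9 CPM in the knockouts and 138 ± 147 CPM in the controls, and in stromal nuclei at 147 ± 28.1 and 153 ± 30.0 CPM. The groups overlapped in all 3 classes. Over the 9 classes where it was tested its fitted log2 changes lay between -0.24 and 0.38, with 0 calls.

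Pmepa1, the TGF-beta-induced inhibitor, was the member that differed most between podocytes and parietal nuclei. In the parietal class it had 25, 14 and 21 UMIs in the knockouts and 2, 0 and 0 in the controls, or 225, 439.8 and 395 CPM against 27.1, 0 and 0 CPM. All 3 knockout libraries were above all 3 controls, and the 60 knockout UMIs lay in 36 nuclei with at most 5 in 1 nucleus. The pooled ratio was 17.8 (exact 95% interval 4.71 to 150, counting error alone), and the exact permutation p was 0.1. The low-count filter left it out of the fit. DESeq2 gave a log2 change of 4.42 and an adjusted p of 0.0445, where 0.97% of genes were called, and edgeR with no filter an adjusted p of 8.81e-05, where 0.512% were.

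In podocytes Pmepa1 had 56, 15 and 11 UMIs in the knockouts and 87, 11 and 15 in the controls, or 140.5, 244 and 110.3 CPM against 230.3, 166 and 174 CPM. The groups overlapped, with a log2 change of -0.29 ± 0.36 (edgeR adjusted p = 0.80), and its sign changed under 3 alternative settings. In stromal nuclei it had 91.4, 159 and 137 CPM in the knockouts and 92.9, 0 and 49.2 CPM in the controls, where knockout 1 was just under control 1. In endothelial cells it had 56.0, 64.6 and 79.6 CPM in the knockouts and 41.0, 31.4 and 37.0 CPM in the controls, with no overlap, a log2 change of 0.72 ± 0.31 and an adjusted p of 1.0.

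Ctgf, a secreted matrix-associated protein that both SMAD3 and YAP can induce, had 48, 31 and 50 UMIs in knockout and 28, 3 and 4 in control podocytes. As levels these were 120.4, 504 and 501 CPM in the knockouts and 74.1, 45.3 and 46.4 CPM in the controls. Every knockout library was above every control library, and knockout 1 was much nearer to the controls than knockouts 2 and 3. The fitted log2 change was 2.48 ± 0.58 (unadjusted p = 0.00211, edgeR adjusted p = 0.128), and the pooled ratio was 3.49 (exact 95% interval 2.39 to 5.23, counting error alone). The low-count filter kept Ctgf through the knockout libraries alone, here and in the fits below that leave libraries out. Its side was thus fixed in advance, and these fits are descriptions and not support for a rise. Without knockout 1 the change was 2.95 with an adjusted p of 0.000178, and without both libraries numbered 1 it was 3.45 with an adjusted p of 0.000386. Leaving out any other single library gave changes of 2.15 to 3.01 and edgeR adjusted p-values of 0.310 to 0.579, with no call. The knockout UMIs lay in 90 nuclei with at most 4 in 1 nucleus, and the control UMIs in 26.

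Ctgf in the parietal class had 6, 11 and 20 UMIs in the knockouts and 2, 0 and 1 in the controls, or 54.0, 346 and 376 CPM against 27.1, 0 and 48.7 CPM. The groups did not overlap, with knockout 1 just above control 3, and the pooled ratio was 7.31 (exact 95% interval 2.31 to 37.1, counting error alone). The low-count filter left Ctgf out of the parietal fit, and without knockout 1 it passed both the filter and the threshold (edgeR adjusted p = 0.0105). It passed that filter through the knockouts alone, so its side was fixed in advance. In stromal nuclei Ctgf had 107, 59.7 and 137 CPM in the knockouts and 54.6, 46.3 and 36.9 CPM in the controls, again with no overlap. In the Fhl2-Ak5 cluster the order was turned round: 78.1, 119.5 and 203 CPM in the knockouts against 224, 455 and 317 CPM in the controls, with a log2 change of -1.28 ± 0.41 (unadjusted p = 0.00887, edgeR adjusted p = 0.487). No knockout library reached the lowest control there.

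**Figure D2:**
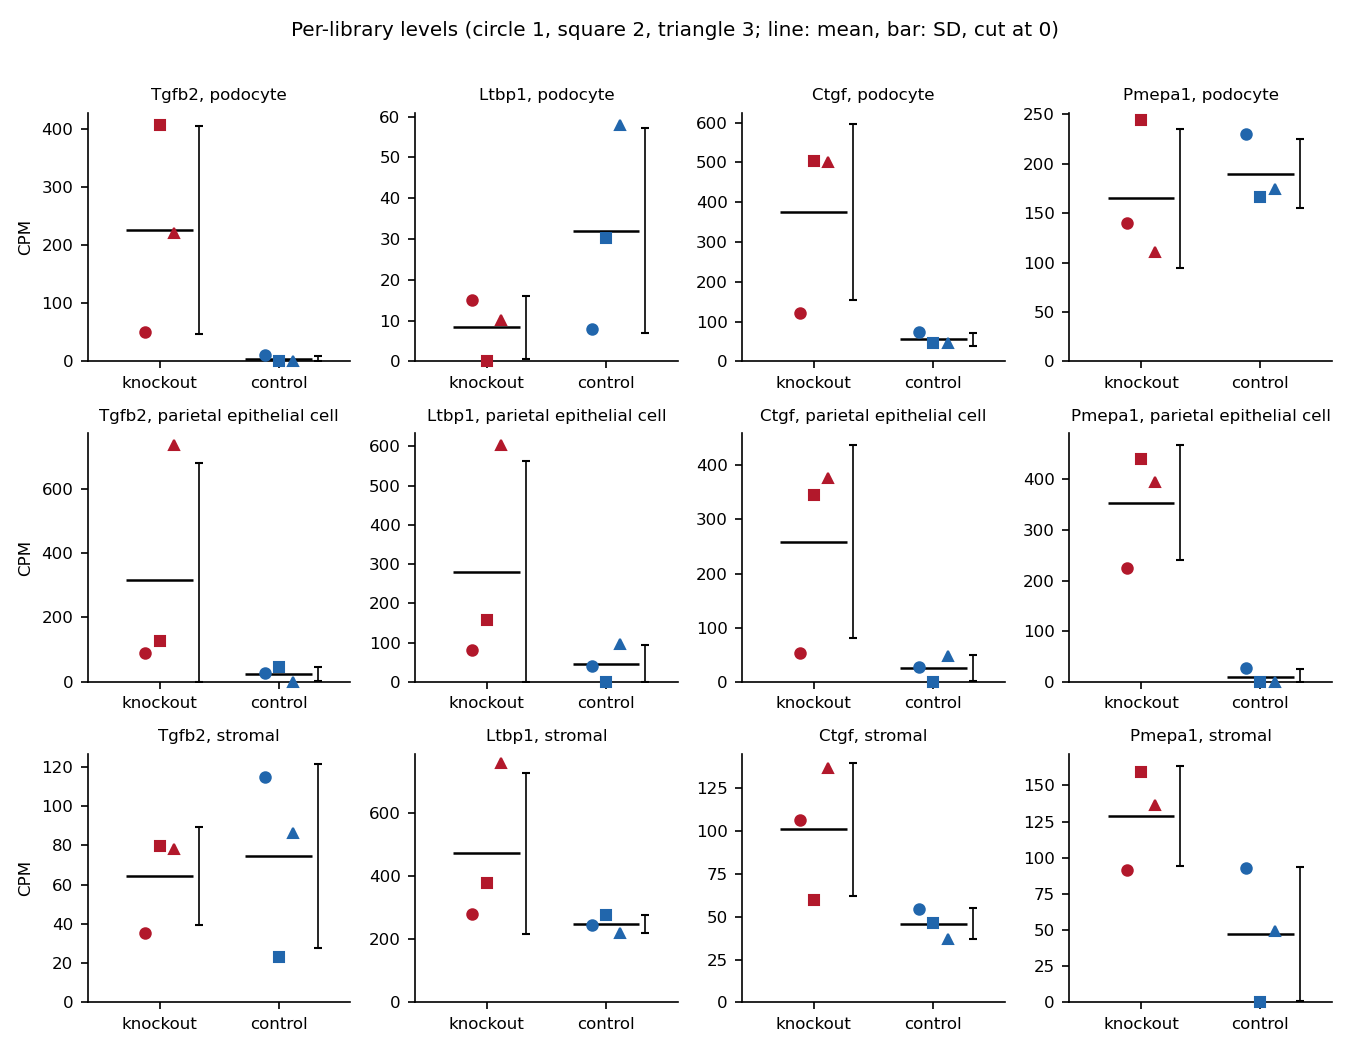
CPM of Tgfb2, Ltbp1, Ctgf and Pmepa1 (columns) in podocyte, parietal and stromal nuclei (rows), knockout left of control in each panel. Symbols are libraries 1, 2 and 3, the line is the group mean and the bar the SD, cut at 0. For Tgfb2 and Ctgf in podocytes and Pmepa1 in the parietal class every knockout point lies above every control point, with knockout 1 the lowest knockout point for each.

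Read over all genes, these counts stand against the following background. In podocytes 4 of 1872 genes tested were called (0.214%), namely Frem1, Npas3, Rbfox1 and Epha6, all higher in the knockouts, and 0 of the 3 members tested. In the parietal class 8 of 858 were called (0.932%) and no member passed the low-count filter. In stromal nuclei 0 of 1494 were called (0.0%), with 180 at an unadjusted p under 0.05 and 0 by DESeq2. The groups did not overlap for 2 members in podocytes (Tgfb2 and Ctgf, knockout higher), 3 with at least 10 UMIs in the parietal class (Tgfb2, Ctgf and Pmepa1, knockout higher) and 2 in stromal nuclei (Ltbp1 and Ctgf, knockout higher). Among genes with at least 10 UMIs in the class, the groups did not overlap with the knockouts higher for 5.48%, 8.46% and 7.24% in the same order, and in either direction for 12.1%, 15.2% and 13.3%. Tgfb1 in the parietal class, with 6 UMIs in all, lies outside that background.

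Over the 14 classes that could be tested there were 126 pairs of member and class. Of these 64 passed the low-count filter, and 0 reached an adjusted p under 0.05, against 23 of 65954 pairs of gene and class over all genes (0.0349%). An unadjusted edgeR p under 0.05 was reached by 8 of the 64. Over all genes it was reached by 160 of 5029 in endothelial cells, the lowest share of a class. Among the classes with a member tested, the highest share was 180 of 1494 in stromal nuclei. The classes share their libraries and are not independent, so the 8 are not read as a result. In the Fhl2-Ak5 cluster 1 of 1923 genes was called (0.052%) and 0 of the 4 members tested, and the groups did not overlap for Tgfb1, Smad3 and Pmepa1 (knockout higher) and Ctgf (knockout lower), against 11.7% of all genes with at least 10 UMIs there. In the sum over all nuclei 24 of 16132 genes were called (0.149%) and 0 of the 9 members, whose fitted log2 changes lay between -0.26 and 0.52. Tgfb1 was at 7.20 ± 1.03 CPM in all knockout nuclei and 4.85 ± 0.289 CPM in all control nuclei, with no overlap and an edgeR adjusted p of 0.532. The makeup of the sum differed too, with 720 injured tubule and 1003 cycling nuclei in the knockouts, against 7 and 100 in the controls, and its part in these values was not tested.

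**Figure D3:**
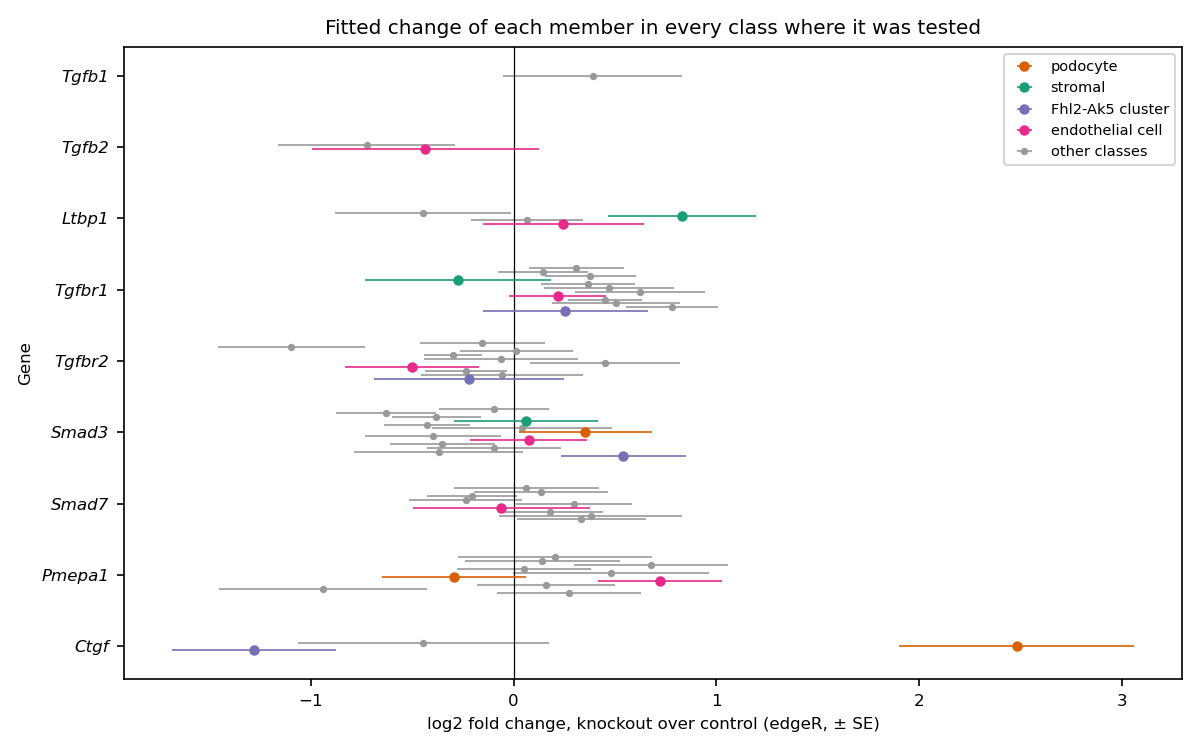
Fitted log2 change of each member, knockout over control, in each class where it passed the low-count filter, with the standard error as bars. Colours mark podocytes, stromal nuclei, the Fhl2-Ak5 cluster and endothelial cells, and grey the other classes. Ctgf has the largest fitted change in podocytes at 2.48 and the lowest in the Fhl2-Ak5 cluster at -1.28, and no point passes an adjusted p of 0.05.

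Whether the knockout effect differs between classes was tested directly, with a class by genotype term and the library as a block. Podocytes differed from the parietal class in Pmepa1, by -4.57 ± 0.79 on the log2 scale (podocyte minus parietal, SE, edgeR adjusted p = 0.000294), where 13 of 2116 genes were called (0.614%). Podocytes differed from endothelial cells in Tgfb2, by 4.32 ± 0.79 (adjusted p = 0.0163), where 5 of 5340 were called (0.0936%). Both held without the libraries numbered 1, at -7.42 ± 1.76 (adjusted p = 0.0113, 0.845% of genes called) and 9.12 ± 1.45 (adjusted p = 2.63e-07, 5.37% of genes called). These sizes are fitted against control counts at or near 0 and depend on how the fit treats a 0, so they give no bound on the size.

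For the other pairs no member passed in all 6 libraries: 0 of the 6 tested between podocytes and stromal nuclei, where 5 of 2482 genes were called (0.201%), and 0 of the 3 tested between the parietal and stromal classes, where 11 of 1568 were called (0.702%). Tgfb2 was not among those 6, since the low-count filter left it out. Without the libraries numbered 1 it was tested and called between podocytes and stromal nuclei, at 7.09 ± 1.76 (podocyte minus stromal, edgeR adjusted p = 0.0130), where 26 of 2071 genes were called (1.26%). Tgfb2 then passed the filter through the knockout podocytes alone, so the side of this difference was fixed in advance. The Tgfb2 effects in podocytes and the parietal class differed by 1.12 ± 1.29 (adjusted p = 0.931) and the Ctgf effects by -0.61 ± 0.87 (adjusted p = 0.938), intervals too wide to call them alike.

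The rest of the pathway was followed in lists of its other ligands and latency genes, receptors, transducers, inhibitors, target genes, the related BMP arm and genes induced by YAP. In the parietal class 2 of the 4 target genes tested, of 22 listed, passed the threshold, where 0.932% of all genes did, and all 4 were on the higher side in the knockouts, against 429 of the 858 genes tested. The median log2 change of the 4 was 2.71, against -0.00 for all genes tested there. The low-count filter can keep a gene through the libraries of 1 group alone. Fn1, at 0 UMIs in the controls, was kept through the knockouts alone, so its side was fixed in advance. Tnc too was kept through the knockouts, since its controls by themselves would not have met the filter. The count of calls, the count of sides and the median are therefore descriptions and not support for a rise. Tnc, which encodes the matrix protein tenascin C, had 837, 3519 and 2786 CPM in the knockouts and 122, 182 and 292 CPM in the controls (log2 3.71 ± 0.59, edgeR adjusted p = 0.0145), with no overlap. Fn1, which encodes fibronectin, had 34, 38 and 93 UMIs in the knockouts and 0, 0 and 0 in the controls, at least 32.6-fold higher with the controls set to 3 UMIs in all (edgeR adjusted p = 0.0145).

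Both calls were lost without control 1 (adjusted p = 0.0505), control 2 (0.119) or knockout 2 (0.107). Without knockout 3 Tnc was called (0.0452) and the low-count filter left out Fn1, and with doublets kept the filter left out both. Both held without the libraries numbered 1 (0.000935). Tnc is among the leading genes of the cluster, although neither gene was used to form it. Proximal tubule markers were lower in this class in the knockouts (2372 to 9399 CPM, against 7359 to 17796 CPM in the controls, 11 of 11 lower) and injured tubule markers mostly higher (522 to 974 CPM, against 182 to 634 CPM), and their part in these calls was not tested.

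In podocytes 0 list genes passed. The 1 target gene tested, the collagen cross-linker Loxl2, had 120.4, 520.2 and 331 CPM in the knockouts and 111, 90.5 and 46.4 CPM in the controls (log2 1.72 ± 0.55, edgeR adjusted p = 0.351), with no overlap. For Loxl2 the knockouts met the low-count filter by themselves and the controls did not, so its change is a description. The other lists had medians of -0.09 (ligands and latency, 3 tested), -0.33 (receptors, 1), -0.20 (transducers, 4), -0.26 (inhibitors, 6), -0.21 (BMP arm, 4) and 0.41 (YAP targets, 2). Tead1, which encodes a partner of YAP, was at 810.0 ± 190.3 CPM in knockout and 571 ± 77.7 CPM in control podocytes (log2 0.55 ± 0.24, adjusted p = 0.507).

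In stromal nuclei 0 list genes passed, and the 4 target genes tested were all on the higher side, with a median log2 change of 0.87 against -0.02 for all genes, of which 48.4% were on the higher side. The limit of the filter given for the parietal class holds here too, so these values are descriptions. The fibrillar collagen Col3a1 had 173, 219 and 351 CPM in the knockouts and 38.2, 0 and 12.3 CPM in the controls (log2 3.11 ± 0.60, edgeR adjusted p = 0.0923), with no overlap and beside the fibroblast markers given above. In the Fhl2-Ak5 cluster Col3a1 was at 332 ± 153 CPM in the knockouts and 49.9 ± 45.7 CPM in the controls (log2 2.17 ± 0.52, adjusted p = 0.277). In the sum over all nuclei 16 of the 22 target genes were tested, 14 were on the higher side, against 46.6% of all genes, and 0 passed, the lowest adjusted p being 0.0524 for Fn1, at 16.7 ± 3.88 CPM in the knockouts and 4.52 ± 0.355 CPM in the controls, beside the difference in makeup given above.

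**Figure D4:**
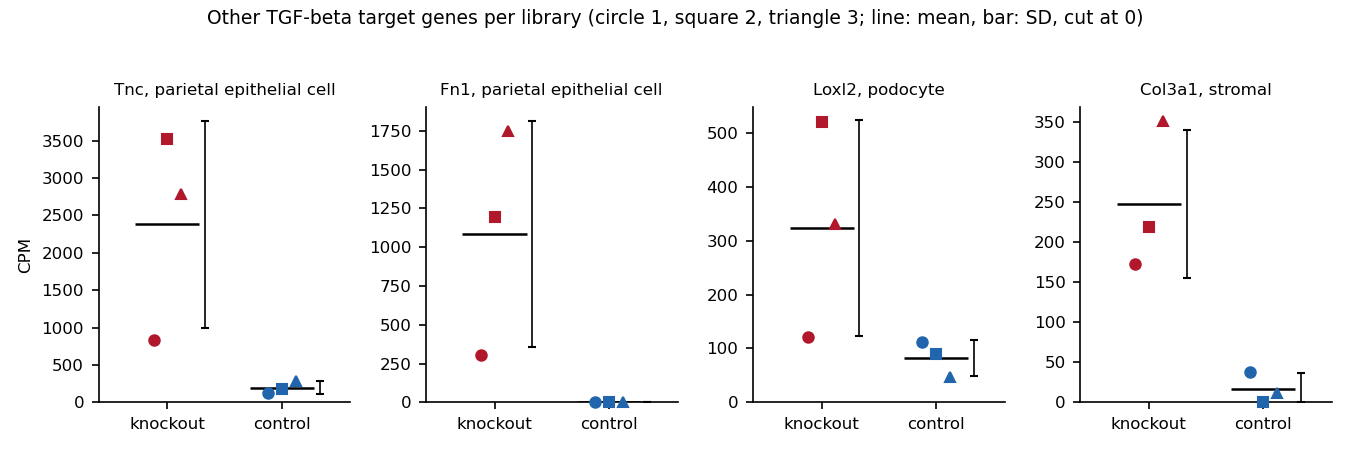
CPM per library (points) of the list genes Tnc, Fn1, Loxl2 and Col3a1 in the classes where they are described, knockout left of control, with the group mean as a line and the SD as a bar, cut at 0. Fn1 is at 0 in all 3 control libraries of the parietal class and Tnc lies between 837 and 3519 CPM in the knockouts there.

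The genes most like each member in their pattern over classes were taken from the pooled control libraries, as Pearson's r of log2(CPM + 1) over 15 classes among 9887 genes, which share libraries and depth. Tgfb2 was most like Ltbp4 (r = 0.933), Piezo2 (0.932) and Ltbp1 (0.925). Ltbp1 was most like Piezo2 (0.975), Ebf1 (0.939) and Meis1 (0.935). Ctgf was most like Pja2 (0.911), Sulf1 (0.906) and Eml1 (0.902). The first gene for the others was Sema5b for Tgfb1 (0.90), Tmem241 for Tgfbr1 (0.986), Adamts1 for Tgfbr2 (0.876), Rbm19 for Smad3 (0.939), Dhx35 for Smad7 (0.991) and Fam76b for Pmepa1 (0.845). The injured tubule class, 1 of the 15 points, held 7 control nuclei. The unnamed Fhl2-Ak5 cluster, which led in the control levels of Tgfb2, Smad3 and Ctgf given above, was not among the 15.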

How the data were processed

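Per the file headers, the authors' deposited matrices came from Cell Ranger 3.1.0 and are raw UMI counts with no scaling. The submitters' processing notes give build mm10 and name Seurat with no role. Aligner settings are not stated there. A barcode was kept with 300 or more genes and no more than 5% mitochondrial UMIs. Doublets were removed by Scrublet score, up to 3.14 to 17.7% of a library, which left 18238, 4895 and 5771 nuclei in knockouts 1, 2 and 3 and 16441, 3741 and 5052 in controls 1, 2 and 3. Leiden clustering (scanpy 1.11.5) gave 71 clusters. The 101 genes of all lists, the members among them, were left out of the genes used to cluster. Clusters were named from the marker lists with thresholds set after the clusters were seen, so classes may differ from those of the study. Mixed clusters (5.91% of nuclei) and unnamed ones (11.1%) were set aside, apart from the Fhl2-Ak5 cluster.

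UMIs were summed per library and class with at least 10 nuclei, and tested by quasi-likelihood in edgeR 4.0.16 (TMM, filterByExpr, Benjamini-Hochberg adjustment over all genes of the class, threshold 0.05). A called gene is one past that threshold. Differences between classes were fitted with a class by genotype term and the library as a block. On simulated counts with known changes, recovery was counted only over changed genes that passed the low-count filter. Of these the test recovered 100% in podocytes and the parietal class and 99.3% in stromal nuclei. True rises, all set to the same size, had a median fitted log2 of 2.51, 2.41 and 2.45 in the same order. The simulated spread between libraries was the same for every gene and was not taken from these libraries. Changed genes were drawn only from those above a minimum count. The shares therefore do not say how often a change of this size is found in the real libraries. The test called 5, 14 and 4 unchanged genes beside the 129, 143 and 141 changed ones. Genes left out by the filter, such as Tgfb2 in podocytes and every member in the parietal class, are not covered by these shares. In the real libraries Ctgf in podocytes, at a fitted log2 change of 2.48, was tested and not called. Promoter sequences are RefSeq's. Genes were named by rule: every member, list genes past the threshold (up to 4 of smallest p) or else up to 2 of smallest p, and the 3 genes of most like pattern. Genes called outside the lists, and the choice of which list genes to describe, were named after their values were seen. The members and lists were chosen with earlier results of these data known.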

Additional observations from a re-analysis of the deposited data

Results flagged for a closer look

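The effect of the knockout on Pmepa1 differed between podocytes and the parietal class, by -4.57 on the log2 scale (podocyte minus parietal, edgeR adjusted p = 0.000294). Pmepa1 was at 165 ± 70.0 CPM in knockout and 190.1 ± 35.1 CPM in control podocytes, and at 353 ± 113 CPM in the knockouts and 9.05 ± 15.7 CPM in the controls in the parietal class (SD, n = 3 each).

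The effect on Tgfb2 differed between podocytes and endothelial cells, by 4.32 on the log2 scale (podocyte minus endothelial, edgeR adjusted p = 0.0163). Tgfb2 was at 226 ± 178 CPM in knockout and 3.53 ± 6.11 CPM in control podocytes, and at 35.4 ± 15.1 CPM in the knockouts and 44.1 ± 23.7 CPM in the controls in endothelial cells.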

How the results depend on the processing

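In podocytes 4 genes and 0 members were called in the fit as reported. The counts were 32 genes under DESeq2, 62 with classes by highest marker score, 87 with no low-count filter, 209 without both libraries numbered 1, 1 in the largest cluster alone and 15 with the replicate block, and 0 to 279 leaving out each library, the highest without knockout 1. Members called there were 2 (Tgfb2 and Ctgf) under DESeq2, highest marker score, no filter and without both libraries numbered 1, and 0 to 2 leaving out each library. In the parietal class, against 8 genes, the counts were 23 under DESeq2, 2 with doublets kept, 60 with list genes kept for clustering, 73 with no filter, 112 with the Cdh6-Cd44 cluster added, 44 with the replicate block and 61 without both libraries numbered 1, and 0 to 127 leaving out each library. Members called there, 0 as reported, were 1 (Pmepa1) under DESeq2, list genes kept, the added cluster and without both libraries numbered 1, 4 with no filter, and 0 to 2 leaving out each library. In stromal nuclei, against 0 genes, 6 were called by highest marker score, 45 with no filter, 1 with the replicate block and 3 with the Fhl2-Ak5 cluster added. In the fits without knockout 1 or without both libraries numbered 1, the limit of the low-count filter given above holds for the members called. The causes were not tested.

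Of the alternatives to 10 member log2 changes, 137 kept direction and side of the threshold, 5 passed it (all Ctgf in podocytes, at 2.46 to 3.45) and 9 turned direction, all between small values: Pmepa1 in podocytes to 0.19 by highest marker score, 0.35 with doublets kept and 0.0011 without both libraries numbered 1, Tgfbr1 in stromal nuclei to 0.33 by highest marker score and 0.23 with the Fhl2-Ak5 cluster, Smad3 in stromal nuclei to -0.11 and -0.22 without control 3 and knockout 3, and in the Fhl2-Ak5 cluster Tgfbr1 to -0.17 without control 3 and Tgfbr2 to 0.24 without control 1 (leaving out each library, -0.17 to 0.54 in 6 fits for Tgfbr1 and -0.34 to 0.24 for Tgfbr2 in the 3 fits in which the low-count filter kept it). The cause was not tested.

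Same-numbered libraries correlated in their deviations at 0.33, 0.066 and 0.17 in podocytes, 0.34, -0.016 and 0.32 in the parietal class and 0.34, 0.050 and 0.010 in stromal nuclei, so not every pair was over 0.1 in these 3 classes. In the proximal tubule every pair was, at 0.60, 0.29 and 0.29. The labels tie the numbers to no litter, batch or day, and whether they pair the libraries was not settled. With the replicate block Ctgf in podocytes changed by 2.17 (edgeR adjusted p = 0.133). Depth limits the parietal class most, where each member held 6 to 60 UMIs in the knockouts and 0 to 18 in the controls. The alternatives that use the Cdh6-Cd44 cluster, the Fhl2-Ak5 cluster, the largest podocyte cluster or no shared barcodes were added after the data were seen.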

Other observations

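An unnamed cluster with Cdh6 and Cd44 among its leading genes held 98, 59 and 43 nuclei in knockouts 1, 2 and 3 and 4, 0 and 1 in controls 1, 2 and 3. Its knockout nuclei had 25, 15 and 13 UMIs of Tgfb2 (162 ± 36.5 CPM, SD, n = 3), 53, 35 and 37 of Smad3, 24, 21 and 21 of Tgfbr2, 21, 14 and 10 of Ltbp1, 20, 13 and 5 of Pmepa1 and 10, 15 and 6 of Ctgf. With 5 control nuclei no comparison can be made.

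In the sum over all nuclei the YAP target Ankrd1, a nuclear ankyrin-repeat protein, was at 8.05, 6.22 and 10.7 CPM in the knockouts and 0.381, 1.29 and 0.172 CPM in the controls (log2 3.88 ± 0.61, edgeR adjusted p = 0.0749), with no overlap. The sum held 720 injured tubule and 1003 cycling nuclei in the knockouts, against 7 and 100 in the controls, and their part in the Ankrd1 values was not tested.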
